A study of Caenorhabditis elegans with 2 samples.

Results

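The genes described here encode translation initiation factors, translation elongation factors and aminoacyl-tRNA synthetases of Caenorhabditis elegans. They were chosen by symbol as protein-coding genes whose names begin with eif- or eef-, or consist of 1 letter followed by ars- and a number. The rule gave 63 genes of 19973 on the nuclear chromosomes, made up of 25 initiation factor genes, 6 elongation factor genes and 32 synthetase genes. Binding of SMA-9, the worm Schnurri homologue and a zinc-finger protein of BMP-like DBL-1 signalling, had been mapped by chromatin immunoprecipitation and sequencing in 1 group with 2 biological replicates. The worms were whole hermaphrodite L2 larvae of strain LW1254, taken 22 hours after release from L1 starvation that followed bleaching. They carried the transgene jjIs1254, described as sma-9C2::gfp with unc-119(+), in an unc-119(ed4) background, and the immunoprecipitation used an anti-GFP antibody. The labels describe a C-terminal GFP-FLAG tag and do not name a promoter for the fusion. All cells of the larva were pooled, so the values do not tell in which cells a site was occupied. No untagged worms are among the samples, no treatment is named, and the control experiment was not analysed here.

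Initiation factors place the ribosome on the start codon of an mRNA: eIF3 is a scaffold on the small ribosomal subunit, eIF1 and eIF1A act during scanning, eIF2 delivers the initiator tRNA, and eIF2B recharges eIF2 with GTP. Elongation factors then move the ribosome along, with eEF1A bringing charged tRNAs, eEF1B recharging eEF1A, and eEF2 driving translocation. Aminoacyl-tRNA synthetases couple each amino acid to its tRNA, and several enzymes come in cytosolic and mitochondrial forms. These are housekeeping genes that growing larvae need.

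A gene is called bound below if the summit of a peak in the authors' reproducible list lay within 1000 bp of any of its annotated 5' ends. That list holds the 7065 peaks that passed the irreproducible discovery rate (IDR), which tests whether peaks keep their rank between replicates. Signal is the peak score given by the authors, and rank 1 is the strongest IDR peak. The summit with 50 bases on either side is shown for 6 of the 8 bound genes of highest signal and for eif-2Bgamma, while the windows of eef-2 and eif-3.C are not shown. The sequences were read from the RefSeq genome of WBcel235 and written 5' to 3' on the strand of the named gene. For the first 6 of them, capitals mark the motif AGAC or its reverse complement GTCT, the GA repeat GAGAGA, and the splice-acceptor-like TTTCAG. For eif-2Bgamma, shown because its summit adjoins a noncoding RNA gene, capitals mark the 23 bases that belong to sup-39, a U1 snRNA gene.
eef-1G, chrV:10965635-10965735, plus strand: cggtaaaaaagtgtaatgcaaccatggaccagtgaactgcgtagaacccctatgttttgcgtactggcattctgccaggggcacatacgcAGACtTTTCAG
eif-3.B, chrII:14795115-14795215, plus strand: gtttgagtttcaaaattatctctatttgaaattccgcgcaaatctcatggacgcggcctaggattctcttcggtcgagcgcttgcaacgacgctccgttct
eef-1B.1, chrIII:7973331-7973431, minus strand: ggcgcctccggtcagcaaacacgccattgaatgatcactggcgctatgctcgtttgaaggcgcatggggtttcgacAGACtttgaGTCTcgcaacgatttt
eef-1A.2, chrX:7823204-7823304, plus strand: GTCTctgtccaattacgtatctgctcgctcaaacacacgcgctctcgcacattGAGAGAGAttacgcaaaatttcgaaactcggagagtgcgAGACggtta
ears-2, chrIV:390446-390546, minus strand: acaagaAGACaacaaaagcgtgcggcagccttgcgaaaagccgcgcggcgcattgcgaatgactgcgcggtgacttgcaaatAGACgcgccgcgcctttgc
eef-1A.1, chrIII:6972050-6972150, minus strand: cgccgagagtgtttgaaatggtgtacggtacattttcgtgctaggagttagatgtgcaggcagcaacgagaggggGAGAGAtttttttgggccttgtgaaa
eif-2Bgamma, chrII:6968536-6968636, minus strand: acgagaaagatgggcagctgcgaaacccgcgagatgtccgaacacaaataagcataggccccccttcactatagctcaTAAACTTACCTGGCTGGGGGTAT

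SMA-9 summits lay at 23 of the 63 genes, which is 36.5% (95% Wilson interval 25.7 to 48.9), against 20.2% of all protein-coding genes. Elongation factor genes were bound at 5 of 6 (83.3%, interval 43.6 to 97.0), initiation factor genes at 11 of 25 (44.0%, interval 26.7 to 62.9) and synthetase genes at 7 of 32 (21.9%, interval 11.0 to 38.8). The intervals of neighbours in this order overlap, and the synthetase share is close to the 20.2% of all genes. The intervals cover counting error over genes only, and genes are not replicates.

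**Figure D1:**
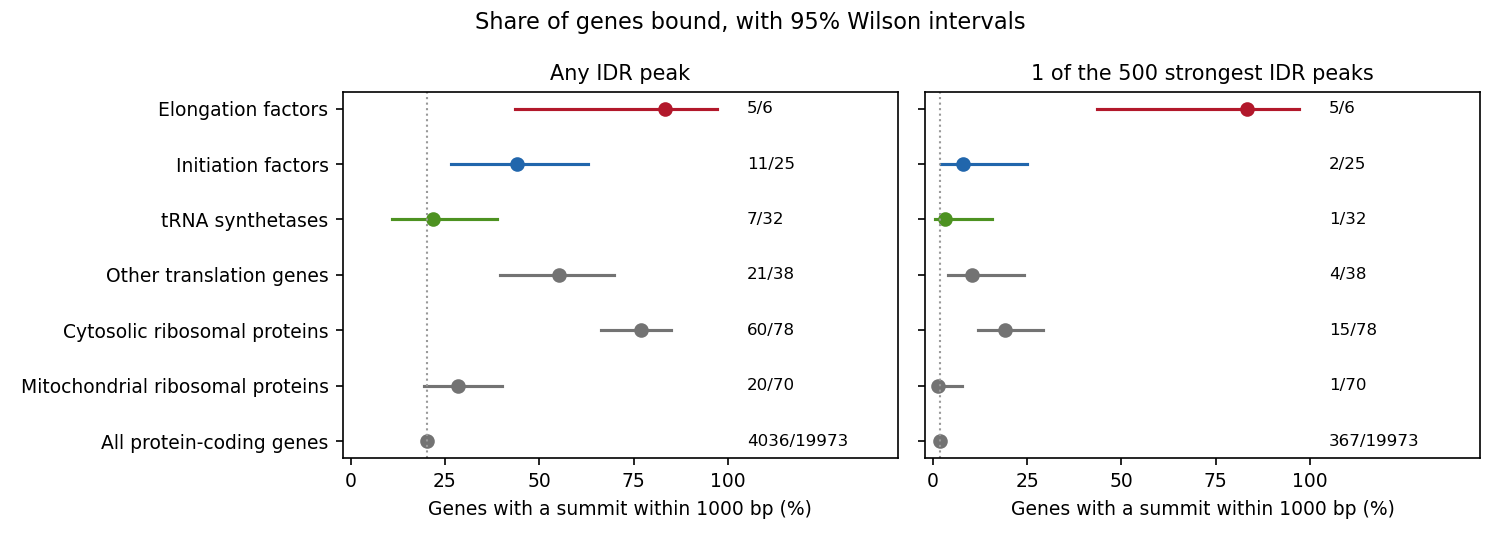
Share of genes bound (x axis, percent) in each group of genes, by any IDR peak (left) and by one of the 500 strongest (right), with 95% Wilson intervals, the share of all protein-coding genes as a dotted line, and the bound count over the group size at the right. In the left panel the elongation factor genes and the cytosolic ribosomal protein genes have the highest shares, and the synthetase genes lie near the share of all protein-coding genes.

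Strong peaks lay mainly at the elongation factor genes. Over the 23 bound genes the median signal of the strongest summit was 157.5 (range 68.6 to 923), against 122 (range 62.0 to 2844) over all 4036 bound protein-coding genes. One of the 500 strongest IDR peaks lay at 8 of the 63 genes, or 12.7%, against 1.84% of all protein-coding genes, and this stricter limit was chosen after the data were seen. Those 8 were the 5 bound elongation factor genes, the eIF3 genes eif-3.C and eif-3.B, and the synthetase gene ears-2. The median signal was 427 for bound elongation factor genes, 128 for bound initiation factor genes and 131 for bound synthetase genes, the last pair close to the 122 of all bound genes.

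**Figure D2:**
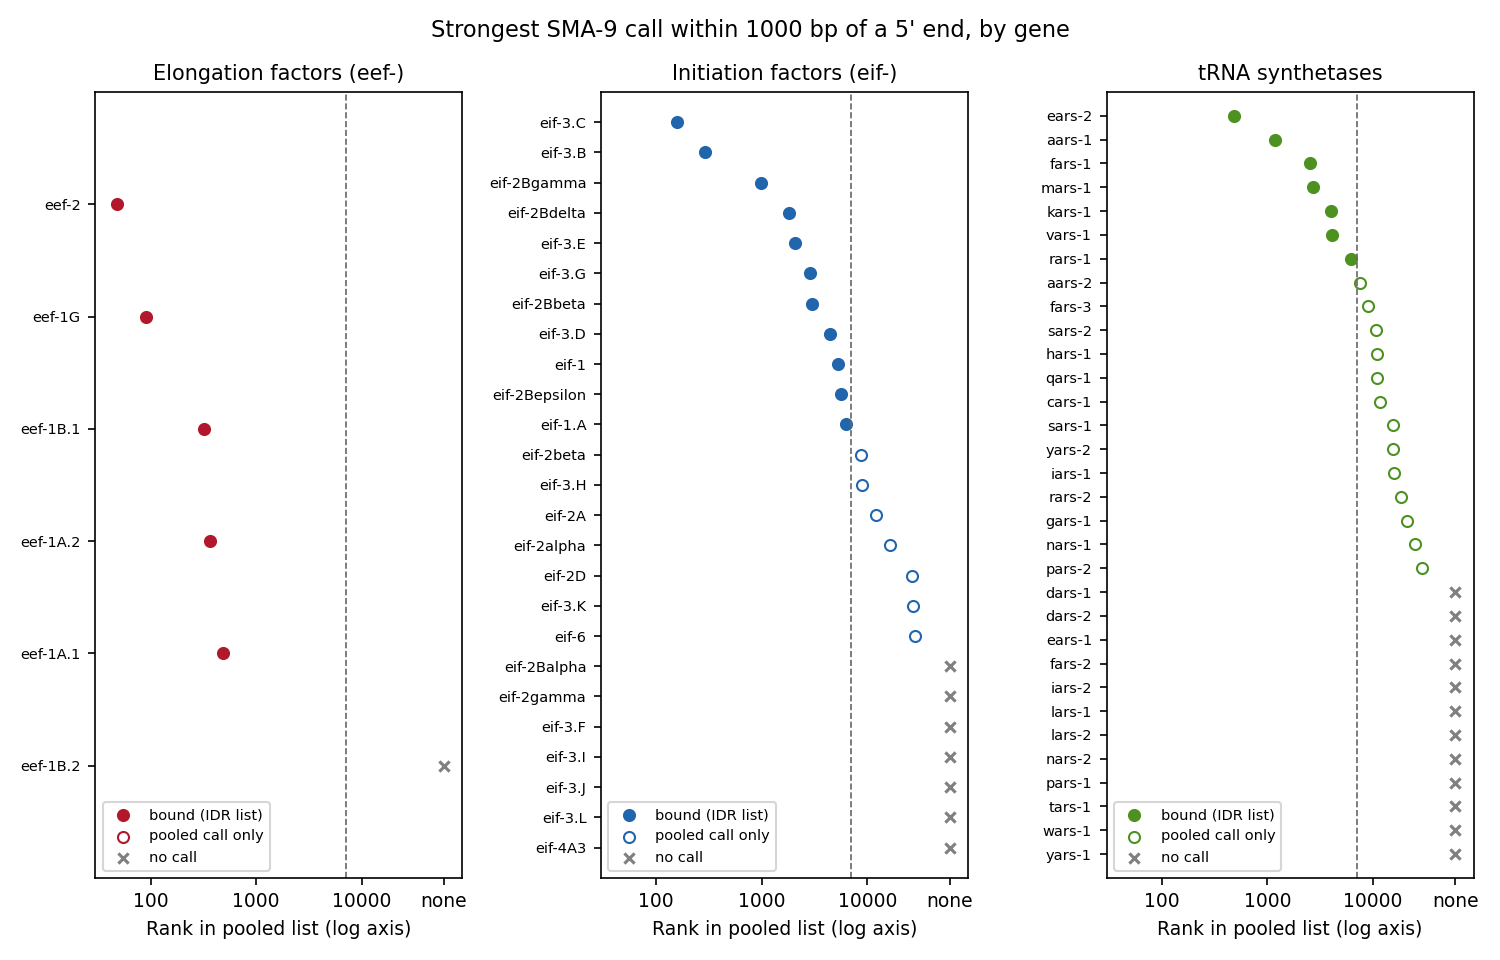
Rank of the strongest peak in the authors' pooled list (log axis) within 1000 bp of each of the 63 genes, in the 3 role classes. The dashed line is the end of the IDR list at rank 7065, and genes with no pooled call are drawn apart; the bound elongation factor genes lie together at ranks 48 to 486.

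Among the elongation factor genes, eef-2 had the strongest summit. The eef-2 gene encodes the translocase eEF2, and its peak at chrI:9163416-9163613 had a signal of 923 and rank 48. The summit lay 16 bp upstream of the eef-2 5' end. At this summit the signal was 591 in replicate 1 (rank 39) and 339 in replicate 2 (rank 86). The gene clsp-1 begins 264 bp away on the other strand, so its 5' end lay in the same window.

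The next elongation factor gene was eef-1G, which encodes the gamma subunit of eEF1B. Its peak at chrV:10965582-10965783 had a signal of 756 and rank 91, with the summit 34 bp upstream of the gene. The signal there was 447 in replicate 1 (rank 83) and 318 in replicate 2 (rank 104). The window printed above ends with AGAC followed by TTTCAG, and the gene ctf-4 starts 179 bp away in the opposite direction. Another subunit gene of the exchange factor, eef-1B.1, had a peak at chrIII:7973305-7973475 with a signal of 427 and rank 324. Its summit lay 5 bp inside the untranslated first exon, the only one of the 23 strongest summits downstream of the 5' end. The same summit lay 54 bp inside the noncoding RNA gene F54H12.9 on the other strand. The replicate signals at eef-1B.1 were 247 (rank 321) and 178 (rank 372) in replicates 1 and 2. A second, weaker summit of signal 86.5 (rank 4748) lay 628 bp from the 5' end of eef-1B.1, and the gene aco-2 starts 330 bp away head to head.

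The 2 genes for eEF1A, which carries charged tRNAs to the ribosome, were both bound. Their coding sequences have 1389 bases each and are 94.0% identical, while the summits lie in different upstream DNA on different chromosomes. At eef-1A.2 the peak chrX:7823167-7823373 had a signal of 401 and rank 362, with replicate signals of 268 (rank 271) and 146 (rank 584). The summit lay 400 bp upstream, with no other protein-coding 5' end in the window, and its sequence holds GTCT, AGAC and the repeat GAGAGAGA. A noncoding RNA gene on the other strand, R03G5.8, has its 5' end 271 bp from this summit. At eef-1A.1 the peak chrIII:6972026-6972181 had a signal of 351 and rank 486, with replicate signals of 173 (rank 677) and 175 (rank 388). That summit lay 388 bp upstream of eef-1A.1 but 153 bp from rfc-4, and 15 bp upstream of the microRNA gene cel-mir-5549. Its window holds GAGAGA and no AGAC.

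The sixth elongation factor gene, eef-1B.2, was not bound. Replicate 1 had a call of signal 55.9 (rank 4051) 160 bp from its 5' end, but neither replicate 2 nor the pooled list had a call in the window. The nearest IDR summit lay 2365 bp away.

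Among initiation factor genes the eIF3 genes were bound at 5 of 11 (45.5%, interval 21.3 to 72.0), against 20.2% of all protein-coding genes. The core subunit gene eif-3.C had a peak at chrI:9979819-9979991 with a signal of 595 and rank 157, its summit 236 bp upstream. The replicate signals there were 396 (rank 109) and 197 (rank 295). The gene for another core subunit, eif-3.B, had a peak at chrII:14795097-14795261 with a signal of 450 and rank 292, its summit 239 bp upstream. Its replicate signals were 244 (rank 331) and 215 (rank 248), and no motif of those searched lay in its window. Neither of these windows held the 5' end of another protein-coding gene. The other bound eIF3 genes were weaker, with signals of 158 at eif-3.E, 128 at eif-3.G and 91.8 at eif-3.D. At eif-3.D the summit lay nearer R08D7.4 (64 bp) than eif-3.D (250 bp). The remaining 6, eif-3.F, eif-3.H, eif-3.I, eif-3.J, eif-3.K and eif-3.L, had no IDR summit in the window.

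Binding at the eIF2B genes, which encode the exchange factor that recharges eIF2, covered 4 of 5 genes (80%, interval 37.6 to 96.4). The share of all protein-coding genes was 20.2%. The signals were 249 at eif-2Bgamma, 174 at eif-2Bdelta, 124 at eif-2Bbeta and 76.0 at eif-2Bepsilon, and eif-2Balpha was not bound. None of the other 5 genes with eif-2 names was bound, namely eif-2alpha, eif-2beta and eif-2gamma for the subunits of eIF2, and eif-2A and eif-2D (0 of 5, interval 0 to 43.4%). The division between eIF2B and other eif-2 genes was made after the values were seen, and their intervals overlap. In the longer pooled list of 30000 calls both groups had a call at 4 of 5, where 47.1% of all protein-coding genes had one. The 4 bound eIF2B genes were not alike in position. At eif-2Bdelta the summit lay 22 bp upstream with no other protein-coding 5' end near, at V 9513752 to 9513844, with replicate signals of 119 and 57.9. At eif-2Bbeta and eif-2Bepsilon the summit lay nearer another gene, 56 bp from Y47H9C.8 and 22 bp from piga-1.

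The peak called for eif-2Bgamma, at chrII:6968555-6968691, lay 938 bp upstream, near the limit of the window, in an intron of C15F1.5. It ranked 982, with replicate signals of 153 (rank 866) and 93.8 (rank 1388). The summit was 28 bp upstream of sup-39, and a weaker pooled call of signal 44.1 lay 315 bp from eif-2Bgamma. Binding at eif-2Bgamma and at sup-39 cannot be told apart from the IDR list. Of the other initiation factor genes, eif-1 (signal 79.2) and eif-1.A (signal 68.6), which encode the scanning factors, were bound near the weak end of the list. The eif-1 peak at chrII:4993830-4994099 ranked 5312, with replicate signals of 32.3 (rank 7932) and 36.5 (rank 5564). Its summit lay 385 bp upstream of eif-1 but 33 bp from vps-24. The genes eif-4A3, for a helicase of the exon junction complex, and eif-6, for a factor of ribosome subunit maturation, were not bound.

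The 7 bound synthetase genes, of 32, were led by ears-2, a glutamyl-tRNA synthetase gene. Its peak at chrIV:390412-390570 had a signal of 353 and rank 480, with the summit 28 bp upstream and uncp-18 starting 91 bp away head to head. The replicate signals at ears-2 were 189 (rank 553) and 165 (rank 445). The alanyl-tRNA synthetase gene aars-1 followed, with a peak at chrII:11464611-11464678, a signal of 224 and rank 1191. Its replicate signals were 118 (rank 1363) and 102 (rank 1207), and a second summit of signal 71.5 lay 45 bp from a 5' end of aars-1. The others had signals of 138 at fars-1 (phenylalanyl), 131 at mars-1 (methionyl), 99.3 at kars-1 (lysyl), 97.1 at vars-1 (valyl) and 69.6 at rars-1 (arginyl).

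Of the synthetase genes numbered 1, 6 of 20 were bound (30%, interval 14.5 to 51.9). Of those with higher numbers 1 of 12 was bound (8.33%, interval 1.49 to 35.4), which was ears-2. A list was made of 8 worm synthetases with counterparts in the multi-synthetase complex of mammals, and it may not be complete. Of these 8 worm genes 3 were bound, kars-1, mars-1 and rars-1 (37.5%, interval 13.7 to 69.4). Of the other 24, 4 were bound (16.7%, interval 6.68 to 35.9). The prolyl-tRNA synthetase gene pars-1, which was not bound, was counted among the 24. These counts are small and were not tested, and each of their intervals holds the 20.2% of all protein-coding genes.

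All 23 summits lay inside a call of each replicate, as did 6727 of all 7065 IDR peaks. This count is therefore close to fixed by the use of the IDR list. The call was within the first 7065 nuclear calls for 20 genes in replicate 1 and for 23 in replicate 2. The matching shares over all IDR peaks were not computed. The median signal was 103 in replicate 1 and 57.9 in replicate 2. The ratio of replicate 1 to replicate 2 ranged from 0.66 at eif-3.G to 2.70 at fars-1, with a median of 1.33 against 1.24 over all IDR peaks. The rank correlation of the replicate signals was 0.92 over the 23 genes and 0.71 over the 6727 IDR peaks called in both, given as a description since the peaks of each replicate share 1 library.

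**Figure D3:**
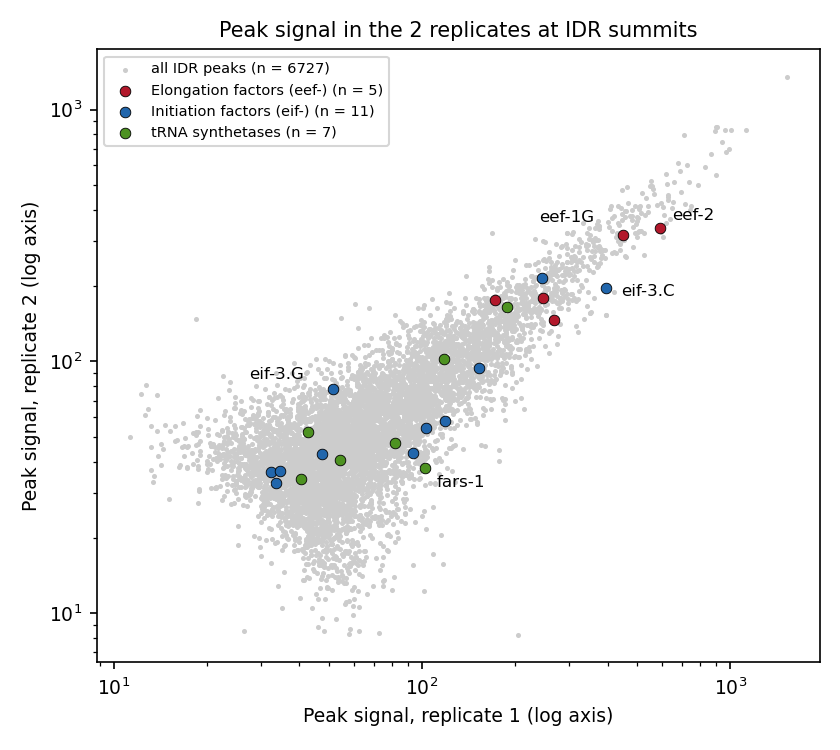
Peak signal in replicate 2 against replicate 1 (both axes log) at the summits of the 23 bound genes, coloured by role, over all IDR peaks called in both replicates in grey. The elongation factor genes are high in both replicates, while eif-3.G and fars-1 lie on opposite sides of the cloud.

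With each replicate taken alone at the same number of strongest nuclear peaks, replicate 1 called 21 and replicate 2 called 24 of the 63 genes. Over all protein-coding genes the shares were 20.0% in replicate 1 and 20.2% in replicate 2. Replicate 1 alone called aars-2 and eef-1B.2 in addition and did not call eif-1, eif-1.A, eif-2Bepsilon and rars-1. Its calls at eif-1, eif-1.A and eif-2Bepsilon ranked 7932, 7626 and 7373, past the limit of 7065. At rars-1 its call at the IDR summit ranked 6136, but the strongest replicate 1 summit inside the window, 584 bp from the 5' end, ranked 17384. Replicate 2 alone called cars-1 in addition.

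The summits lay mostly just upstream of the genes. Of the 23, 22 (95.7%) were upstream of the nearest 5' end of the gene, against 83.7% of all bound genes. A distance of at most 400 bp was found at 20 of 23 (87.0%), against 64.7% of all bound genes, and the median distance was 239 bp against 261.5 bp. The 400 bp limit was not planned and equals the distance at eef-1A.2, so these 2 shares are a description only. Of the 23 summits, 6 lay within 100 bp, those of eef-2, eef-1G, eef-1B.1, ears-2, eif-2Bdelta and vars-1, and 3 of these are elongation factor genes. The share of all bound genes within 100 bp was not computed. The 3 just inside the limit were rars-1 at 968 bp, eif-2Bgamma at 938 bp and fars-1 at 895 bp, while the nearest outside were iars-2 at 1846 bp and eif-6 at 2014 bp.

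**Figure D4:**
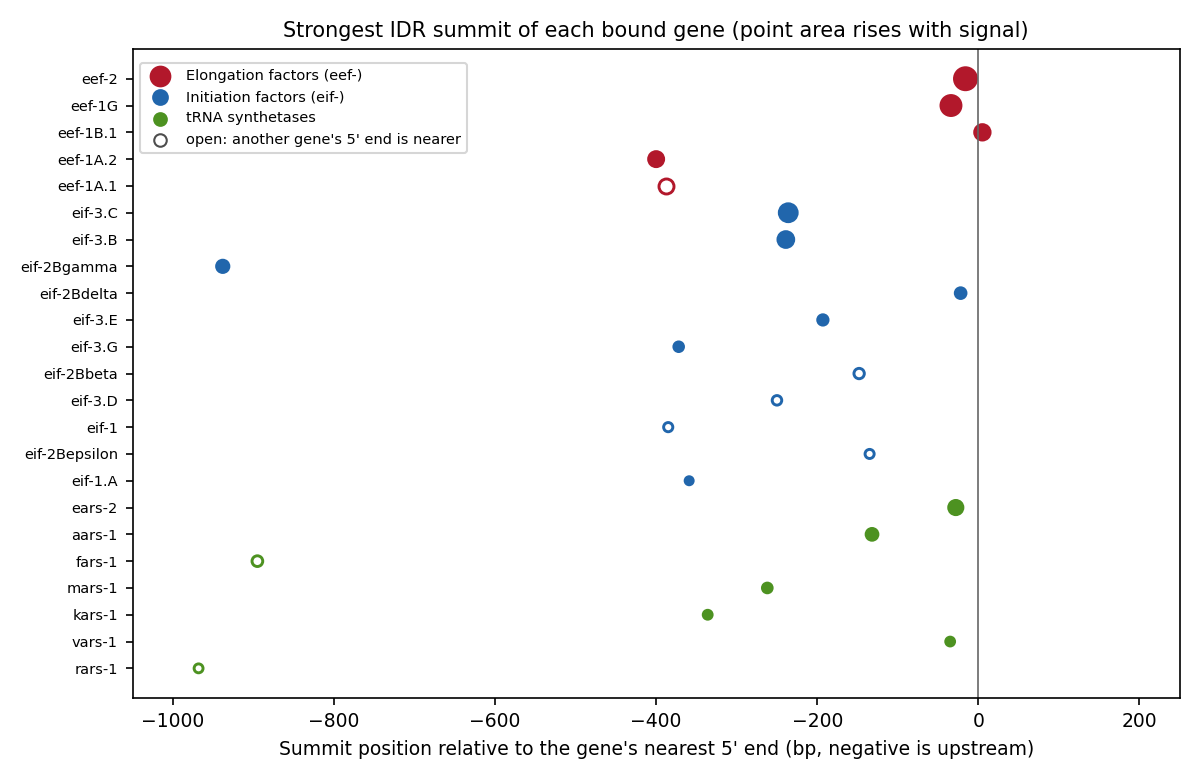
Distance of the strongest IDR summit from the nearest 5' end of each of the 23 bound genes (x axis, bp, negative is upstream), with point area rising with signal and open points where another gene's 5' end is nearer. Most points lie between 400 bp upstream and the 5' end, and fars-1, eif-2Bgamma and rars-1 lie apart near the 1000 bp limit.

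Sharing of the window with a neighbour was common. Another gene's 5' end lay within 1000 bp of the same summit at 15 of the 23 bound genes (65.2%), against 37.9% of all bound genes. The summit lay nearer to another gene at 7 of 23, which were eef-1A.1, eif-1, eif-2Bbeta, eif-2Bepsilon, eif-3.D, fars-1 and rars-1. The bound gene was thus the nearest to its summit at 16 of 23, against 80.7% of all bound genes. The 63 genes themselves lie head to head with a neighbour within 2000 bp more often than other genes, at 32 of 63 (50.8%) against 25.8% of all protein-coding genes. Within this class 15 of 32 were bound (46.9%, interval 30.9 to 63.6) against 28.4% of all genes of the class (interval 27.2 to 29.7). Another 17 of the 63 lie within 500 bp downstream of a gene on the same strand, the spacing seen in operons, where a promoter can lie before an earlier gene. Of these, 4 were bound (23.5%) against 14.1% of all genes so placed. The 63 genes also have more annotated 5' ends, 1.78 per gene against 1.49 over all genes, and with the outermost 5' end alone the count of bound genes was 23.

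The 10 motifs searched on both strands were not shared by the 23 windows. AGAC, the motif bound by Smad proteins, lay in 9 of the 23 windows (39.1%), against 59.4% of IDR windows and 41.5% of windows at annotated 5' ends. Its palindrome GTCTAGAC was in none, and was in 0.113% of IDR windows and 0.0437% of windows at 5' ends. The GA repeat GAGAGA lay in 5 windows (21.7%), against 25.6% of IDR windows and 7.23% of windows at 5' ends. The E-box CACGTG lay in none, against 7.36% of IDR windows and 1.85% of windows at 5' ends. The GATA motif GATAAG also lay in none, against 14.5% of IDR windows and 5.25% of windows at 5' ends. For each motif found in none of the 23 windows the count allows a share of up to 13.0%, for counting error only. This limit is 3 counts over the 23 windows and is not a Wilson interval. TATAAA lay in none of the 23 windows, against 5.46% of IDR windows and 13.7% of windows at 5' ends. TGATGNAA lay in none of the 23 windows either, against 3.14% of IDR windows and 2.62% of windows at 5' ends. TGACGT lay at eif-2Bdelta and eif-2Bepsilon (8.70%), against 7.74% of IDR windows and 3.38% of windows at 5' ends. TTTCAG lay at eef-1G and mars-1 (8.70%), against 6.34% of IDR windows and 33.9% of windows at 5' ends. GGGCG lay in 3 windows (13.0%), against 11.5% of IDR windows and 5.65% of windows at 5' ends. The windows were GC-rich, with a median of 48.5% against 43.6% in IDR windows and 36.6% at 5' ends, and its part in the motif shares was not tested.

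The 40 genes not bound divide evenly by the weaker calls. In the pooled list, which extends to 30000 calls, 20 had a call in the window and 20 had none. Over all 63 genes the pooled list had a call at 43 (68.3%), against 9415 of 19973 protein-coding genes (47.1%). Both counts include the bound genes, 23 of the 63 and 4036 of the 19973, so the 47.1% does not match the 20 of 40. Of all protein-coding genes, 15937 were not bound, and the share of these with a pooled call was not computed. The 4 strongest below the IDR list were aars-2 (signal 57.8, rank 7612), eif-2beta (51.1, rank 8649), eif-3.H (49.3, rank 8950) and fars-3 (49.3, rank 8968). At aars-2 the call lay 217 bp away, with replicate signals of 37.8 (rank 6665) and 15.5 (rank 14714). The IDR list ends at rank 7065 with a signal of 61.96. No call was listed in the pooled windows of dars-1, ears-1, eif-2Balpha, eif-2gamma, eif-4A3, lars-1 or tars-1, among others. The nearest IDR summit to an unbound gene lay a median of 6851 bp away, from 1846 bp at iars-2 to 97670 bp at eif-4A3.

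The machinery around these genes was compared with them. The cytosolic ribosomal protein genes were bound at 60 of 78 (76.9%), with a median signal of 244, and 15 of them (19.2%) held one of the 500 strongest peaks. The mitochondrial ribosomal protein genes were bound at 20 of 70 (28.6%, interval 19.3 to 40.1), with a median signal of 155. Of all protein-coding genes 20.2% were bound, a share inside the mitochondrial interval, and 1.84% held one of the 500 strongest peaks. A list of 46 further translation genes that the symbol rule leaves out had 38 in the annotation by those names, of which 21 (55.3%) were bound. The strongest was ifet-1, for a translational repressor that binds the cap-binding protein, with a signal of 906 and rank 53, close to eef-2. The eIF5A gene iff-2 had a signal of 773 (rank 86), larp-1 had 473 (rank 257), and rheb-1, for a GTPase that activates TOR, had 359 (rank 463). The transcription factor gene atf-4 had 295 (rank 696), ifg-1, for eIF4G, had 108, and the release factor gene erfa-3 had 106. The 17 not bound include inf-1 for eIF4A, pab-1 for poly(A)-binding protein, let-363 for TOR and rsks-1 for S6 kinase.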

How the data were processed

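SMA-9 was measured by ChIP-seq in 2 biological replicates of 1 group. The authors deposited peak lists on ce10 and ce11; the 4 ce11 lists were used. Each line holds the authors' peak score, called signal here, which has no fixed range and ranks peaks within a list, and a −log10 q-value, as deposited by the authors. Per the file headers, replicate, pooled and IDR lists were derived from the alignments. The sources used here do not give the aligner, caller or IDR threshold. The lists give no read counts, so depth is unknown, and intervals cover counting error only. The ce11 build is WBcel235; genes came from Ensembl 115 (29773 distinct 5' ends of protein-coding genes, many of which are trans-splice sites), and sequence from RefSeq. Summits were joined to 5' ends with Python 3.11.15, pandas 2.3.3 and NumPy 2.4.6, checked on planted summits. Replicate ranks count nuclear peaks. Members and lists were chosen with earlier results of these data known. Named in full were the 10 strongest bound genes and the strongest of each subgroup; the members just inside and outside the window and a few strong related genes are also given. No test was made, since there is no contrast. Alternatives covered the window, the peak threshold, 1 replicate alone, the 5' ends and the assignment of summits.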

Additional observations from a re-analysis of the deposited data

How the results depend on the processing

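No paired analysis was possible because there is 1 group. With 1 replicate left out, the count of bound genes ranged from 21 to 24 over the 63 genes, from 8 to 11 for initiation factors, from 5 to 6 for elongation factors and from 7 to 8 for synthetases. With the 3532 IDR peaks of highest signal, 16 of the 63 genes (25.4%) were bound, against 11.8% of all protein-coding genes, with 7 initiation factor genes (28.0%) and 4 synthetase genes (12.5%) among them. With each summit given to its nearest gene alone, 7 initiation factor genes were bound, and 16 of the 63 genes against 16.6% of all protein-coding genes. With the 500 strongest peaks, chosen after seeing the data, 8 of the 63 genes were bound, 2 of them initiation factor genes and 1 a synthetase gene. The median signal at the bound summits was 103 in replicate 1 and 57.9 in replicate 2, whose lists have their own scales. With a window of 500 bp 20 genes were bound (15.4% of all genes), without eif-2Bgamma, fars-1 and rars-1, and with 2000 bp 24 (27.6% of all genes), with iars-2 in addition. The depth is unknown, no untagged worms are among the samples, and the 6 elongation factor genes give a wide interval.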
